A study of Mus musculus with 12 samples.

Results

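The 44 protein-coding mouse genes whose symbols name a collagen alpha chain (Col, a type number, a and a chain number) were followed in back skin of BALB/c mice. They were picked from the 52636 genes of the deposited count table by symbol alone, and all 44 had a row in it. Every sequenced mouse was of the BALB/c strain, and per the methods such mice were young adult females. The control group, labelled only as control mice, was per the methods injected with vehicle, and the LL37 group held skin injected repeatedly into the dermis with LL37, the active peptide of human cathelicidin, which gives a rosacea-like inflammation. The control + RAPA and LL37 + RAPA groups were the same with added rapamycin (RAPA), which inhibits the mTORC1 kinase complex. The methods give RAPA to BALB/c mice by intraperitoneal injection, so it was not limited to the skin, but for the mice that were sequenced no route is named. Each group had 3 libraries of whole skin, described by the study as independent biological samples. The labels do not tie a library to 1 mouse or to pooled mice, so p-values measure the spread between these libraries.

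Collagens are the main structural proteins of the dermis, and each molecule is a triple helix of 3 alpha chains in which glycine recurs at regular steps along the chain. Fibrillar collagens such as types I, III and V assemble into the rope-like fibrils that give skin its tensile strength. FACIT collagens sit on fibril surfaces, type IV chains form the sheet of the basement membrane, type VI forms beaded filaments around cells, and type VII anchors the epidermal basement membrane to the dermis. Multiplexins (types XV and XVIII) belong to basement membrane zones, short chain collagens (types VIII and X) form hexagonal networks, and the transmembrane collagens, such as type XVII of the hemidesmosome, span the cell membrane. The 44 genes held 11 fibrillar, 9 FACIT, 6 type IV, 6 type VI, 4 transmembrane, 3 short chain, 2 multiplexin and 1 anchoring fibril gene, plus 2 genes outside these classes.

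The repeat that defines the family is shown because the classes differ in it. In the longest annotated coding sequence of each gene (GENCODE M21, build GRCm38), the longest unbroken run of a glycine codon followed by a pair of other codons was counted. The median run was 338 triplets over the 11 fibrillar genes (216 to 344), 57 over the 9 FACIT genes (32 to 113), 43.5 over the 6 type IV genes (39 to 66) and 45 over the 6 type VI genes (37 to 87). It was 30 in both multiplexin genes and 75 in Col7a1. The end of that run is given for 3 genes, as the last 4 triplets and the 6 codons after them, with the in-frame glycine codons of the run in capitals.
Col3a1: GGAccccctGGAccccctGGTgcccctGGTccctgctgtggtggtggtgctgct
Col12a1: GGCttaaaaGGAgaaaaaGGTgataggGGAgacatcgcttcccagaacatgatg
Col4a4: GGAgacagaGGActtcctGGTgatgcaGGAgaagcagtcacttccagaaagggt
The Col3a1 stretch covers codons 1184 to 1201 at the end of a run of 344 triplets, and the Col12a1 stretch covers codons 2889 to 2906 at the end of a run of 32. The Col4a4 stretch covers codons 946 to 963 at the end of a run of 45. Besides its longest run, Col4a4 had other runs, and its runs of at least 10 triplets numbered 16 against 2 in Col3a1.

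The libraries held 15734559 to 23271784 counts on genes. Expression is given as CPM, counts scaled to library depth with edgeR's TMM factors, and a floor of 3 counts, which covers counting error only since the reads carry no molecular identifiers, lay between 0.123 and 0.184 CPM. Of the 44 genes, 38 passed the filter on low counts and were tested among 17993 genes. Some libraries stood apart within their groups: control replicate 1 was the highest control library for 25 of the 38 tested collagen genes, and LL37 replicate 3 was the highest LL37 library for 23. LL37 replicate 3 also had the lowest sum of 7 neutrophil markers in its group (252 CPM against 1750 and 2440), and the part of this in its collagen levels was not tested. The 6 genes left untested were Col2a1, Col9a1, Col9a2 and Col10a1 of cartilage, Col19a1 and Col25a1, and none exceeded 18 counts in any library. In whole skin, fewer cells of a type and less RNA per cell cannot be told apart.

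Levels of different genes were compared per kilobase of annotated exon in control skin. Col17a1, the hemidesmosome collagen of basal keratinocytes, had the highest level at 217.5 ± 18.9 CPM per kilobase (SD, n = 3). It was followed by Col1a1 (161.0 ± 85.8), Col3a1 (120.6 ± 52.8), Col1a2 (79.4 ± 32.9), Col6a1 (64.9 ± 22.9) and Col7a1 (37.8 ± 2.21). The libraries of each neighbour in this order overlapped down to Col6a1. Within each control library, though, Col1a1 exceeded Col3a1, Col3a1 exceeded Col1a2 and Col1a2 exceeded Col6a1. Col17a1 and Col1a1 changed order between libraries. Every control library of Col17a1 was above every one of Col3a1, Col1a2 and Col6a1. The libraries of Col6a1 and Col7a1 did not overlap.

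Collagen genes together took 0.684% ± 0.197 of all counts in control skin (SD, n = 3), 0.523% ± 0.0244 in control + RAPA skin, 0.814% ± 0.137 in LL37 skin and 1.06% ± 0.126 in LL37 + RAPA skin. All 3 LL37 + RAPA libraries (0.917, 1.16 and 1.09%) lay above all 3 control libraries (0.906, 0.533 and 0.612%), which is the smallest p that 3 against 3 allows (0.1, two-sided exact permutation test). With the counts of the skeletal muscle genes left out of the total, which differed widely between the groups, these groups overlapped (p = 0.2, exact permutation test). LL37 skin overlapped both control skin (p = 0.4, exact permutation test) and LL37 + RAPA skin (p = 0.2, exact permutation test). Fibrillar genes made up the largest part, with 0.356% ± 0.155 of counts in control skin, 0.210% ± 0.0207 in control + RAPA skin, 0.428% ± 0.109 in LL37 skin and 0.561% ± 0.0898 in LL37 + RAPA skin. Type IV genes took 0.0429% ± 0.0141, 0.0468% ± 0.0149, 0.0674% ± 0.0115 and 0.0931% ± 0.0149 in the same order. Among control libraries the fibrillar share was highest in replicate 1 (0.528% against 0.228 and 0.312%). Without control replicate 1, LL37 skin exceeded control skin by 42.2% in the total collagen share, against 19.0% with it.

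**Figure D1:**
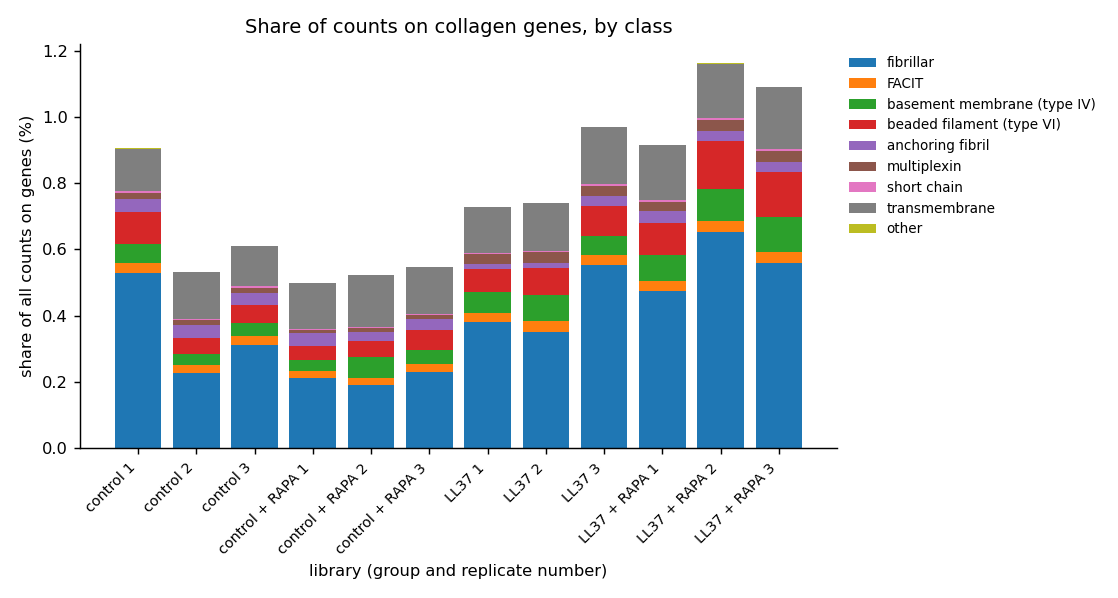
Stacked bars give, for each of the 12 libraries on the x axis, the percent of all counts on genes that fell on each collagen class (y axis). The 3 LL37 + RAPA bars reach 0.917 to 1.16%, and the control replicate 1 bar reaches 0.906% while the other control bars reach 0.533 and 0.612%.

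The 4 comparisons and the interaction were fitted in 1 model over all libraries with edgeR's quasi-likelihood test, and a gene was called at a Benjamini-Hochberg adjusted p under 0.05. A called gene that also passed an absolute log2 fold change of 1 was a DEG, a differentially expressed gene. In LL37 vs control, 5 of 38 collagen genes rose, against 21.0% of all tested genes, and 11 of 38 fell, against 21.6%. Among those that rose, Col6a4 passed the filter on low counts only through its LL37 libraries. DEGs numbered 4 higher (8.73% of all tested genes) and 8 lower (10.8%). The libraries of both groups did not overlap for 17 of 38 (49.7% of all tested genes), so the share of collagen genes set apart was near that of all genes. The median log2 fold change of the 38 was -0.07, against -0.0049 over all tested genes.
Comparing LL37 skin with LL37 + RAPA skin gave 2 genes higher (11.8% of all tested genes) and 10 lower (12.4%) in the skin without RAPA. There were 1 higher (4.33%) and 3 lower (5.80%) DEGs, and 17 of 38 did not overlap (38.3%). A negative log2 fold change was found in 31 of the 38, with a median of -0.49 against -0.0042 over all tested genes. Markers of some other cell types were also lower in LL37 than in LL37 + RAPA skin. Called lower were 8 of 8 adipocyte, 5 of 8 Schwann cell, 5 of 10 endothelial and 19 of 19 tested skeletal muscle genes. Macrophage and neutrophil markers went the other way, with 6 of 8 and 3 of 6 tested genes called higher and 0 lower. Of 8 basal keratinocyte genes 2 were higher and 2 lower, and of 12 fibroblast genes 1 was higher and 4 lower. The adipocyte markers summed to 1475 to 2661 CPM in control, 1798 to 4302 in control + RAPA, 452 to 902 in LL37 and 2771 to 2972 in LL37 + RAPA skin, and the Schwann cell markers to 442.5 to 559.6, 506 to 565.6, 168.5 to 250.8 and 295.3 to 506.2 CPM in the same order. In LL37 vs control 7 of 8 adipocyte and 5 of 8 Schwann cell genes fell, none of either list was at 0 throughout a group, and their part in the collagen differences was not tested.
In LL37 + RAPA vs control, 8 rose (5.03% of all tested genes) and 3 fell (9.01%), 3 higher (2.15%) and 3 lower (4.35%) were DEGs, and 19 of 38 did not overlap (36.4%). The median was 0.33 against 0.0048. The first of these comparisons shares its LL37 libraries with the second and its control libraries with the last, and the second and the last share the LL37 + RAPA libraries. With library size only in place of TMM, the median of all tested genes in LL37 + RAPA vs control moved to 0.13 and that of the interaction to -0.11, and in LL37 + RAPA vs control the calls became 15 higher and 2 lower in place of 8 and 3.

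**Figure D2:**
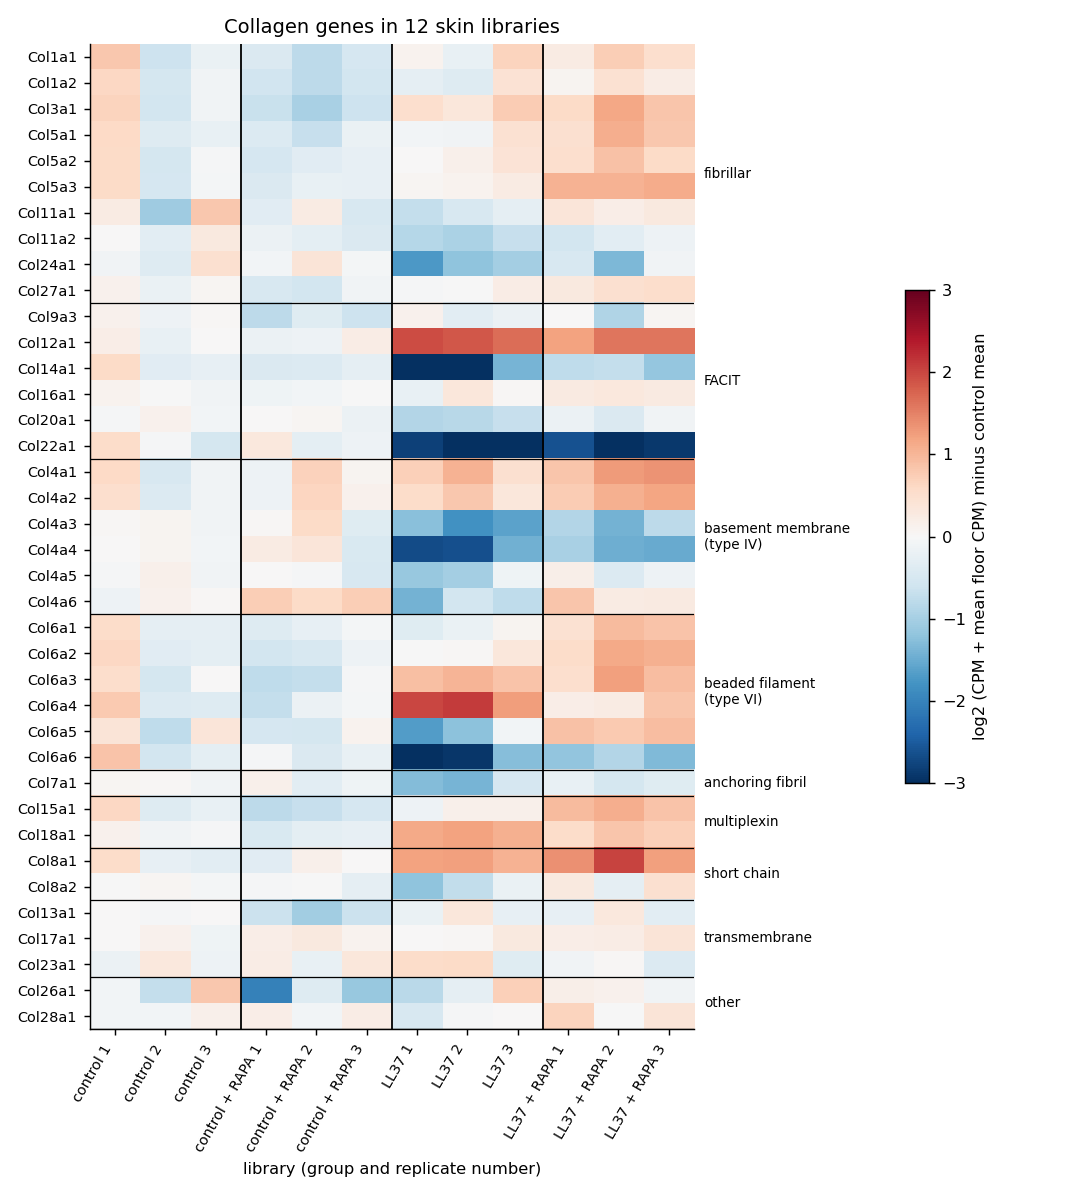
Rows are the 38 tested collagen genes by class and columns the 12 libraries. Colour gives log2 of CPM plus the mean floor, minus the control mean, and saturates at 3 in either direction. Col12a1 is red in all LL37 and LL37 + RAPA libraries, Col22a1 is deep blue in the same 6, and LL37 replicate 3 is paler than replicates 1 and 2 for Col14a1 and Col6a6.

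**Figure D3:**
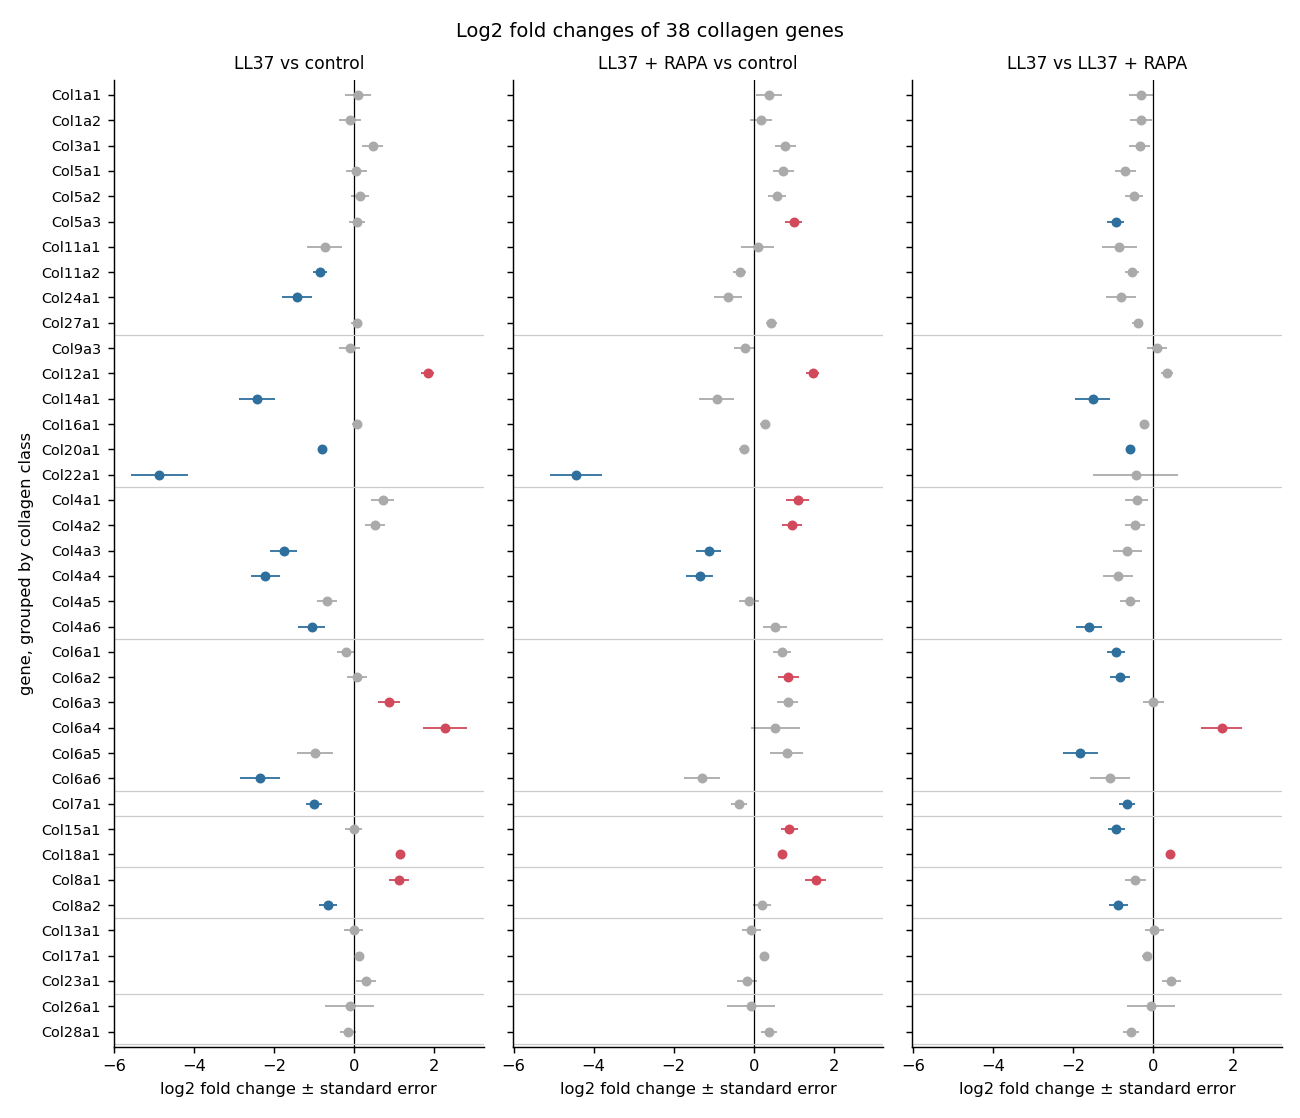
Each point is the log2 fold change of 1 gene with its standard error (x axis), in 3 comparisons, with genes by class on the y axis. Red points were called higher in the group named first, blue points lower, and grey points were not called. In the panel of LL37 vs LL37 + RAPA, all 10 fibrillar and all 6 type IV points lie below 0.

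Among the fibrillar genes, the chains of types I, III and V that build the bulk dermal fibril were not called in LL37 vs control, whereas 2 minor chains fell. Col1a1 and Col1a2 encode both chains of type I collagen, the main protein of dermal fibrils. Col1a1 stood at 1696, 632 and 843 CPM in control replicates 1 to 3, 1039, 831 and 1532 in LL37, 1149, 1622 and 1375 in LL37 + RAPA and 714, 558 and 677 in control + RAPA skin. Col1a2 stood at 1440, 648 and 870 CPM in control, 772, 711 and 1252 in LL37, 980.3, 1288 and 1084 in LL37 + RAPA and 626, 538 and 639 in control + RAPA libraries. Both genes were highest in control replicate 1 among the control libraries, and both groups overlapped control skin. Their log2 fold changes in LL37 vs control were 0.10 and -0.11 (SE 0.32 and 0.28, adjusted p = 0.824 and 0.77, edgeR). Col3a1, the fibrillar chain of pliable tissue and early repair, held 1761, 761 and 1029 CPM in control, 1590, 1415 and 1875 in LL37, 1668, 2490 and 1979 in LL37 + RAPA and 703, 568 and 729 in control + RAPA libraries. The LL37 libraries were within the range of the control libraries or just above it, and control replicate 1 was again the high control library. The log2 fold change of Col3a1 was 0.46 (SE 0.27, edgeR adjusted p = 0.188) in LL37 vs control and 0.79 (SE 0.27, edgeR adjusted p = 0.0731) in LL37 + RAPA vs control. Without control replicate 1, Col3a1 was called higher in both comparisons. In LL37 + RAPA vs control it was also called higher with all libraries, with library size only in place of TMM and with DESeq2, among other settings. Col3a1 shares 141 bases of exon with Gm47302 on the same strand, so its reads could be split.

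Type V chains nucleate the fibril and limit its width. Col5a3 held 189, 89.7 and 121 CPM in control, 132, 136 and 150.1 in LL37, 262, 263 and 274 in LL37 + RAPA and 94.1, 109 and 108 in control + RAPA libraries. The 3 LL37 + RAPA libraries stood close together above every other library, and LL37 and control libraries overlapped. Col5a3 was higher in LL37 + RAPA skin than in control skin by a log2 fold change of 1.00 (SE 0.20, edgeR adjusted p = 0.00681) and lower in LL37 than in LL37 + RAPA skin (-0.93, SE 0.20, edgeR adjusted p = 0.00844), while LL37 vs control gave 0.06 (SE 0.20, edgeR adjusted p = 0.822), where it was called higher without control replicate 1. Col5a2 held 174, 81.9 and 114 CPM in control, 118, 130.2 and 156 in LL37, 166, 218 and 174 in LL37 + RAPA and 82.5, 92.9 and 99.5 in control + RAPA libraries, and Col5a1, whose antisense neighbours share 99 and 113 bases of exon with it, ranged from 83.9 to 286.3 CPM over all libraries. Neither was called in any comparison with the main settings. In LL37 + RAPA vs control both were called higher without control replicate 1 and, with all libraries, with library size only in place of TMM. DESeq2 called Col5a1 there, in LL37 vs LL37 + RAPA and in the interaction. Col27a1, a fibrillar chain of cartilage and other tissues, held 33.4, 26.9 and 32.2 CPM in control, 29.9, 30.3 and 36.1 in LL37, 37.9, 43.1 and 44.3 in LL37 + RAPA and 22.1, 20.9 and 28.3 in control + RAPA libraries. It overlapped between LL37 and control skin, while its LL37 + RAPA libraries were above all others. Col27a1 was not called in any comparison. In LL37 + RAPA vs control (0.44, SE 0.14, edgeR adjusted p = 0.0547) it was called higher with library size only in place of TMM and with DESeq2, among other settings.

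The fibrillar genes that fell were of low level. Col11a2, a chain of the type XI collagen that nucleates cartilage fibrils, held 12.1, 9.64 and 14.6 CPM in control, 6.53, 6.13 and 7.301 in LL37, 8.16, 9.54 and 10.8 in LL37 + RAPA and 10.5, 9.78 and 8.86 in control + RAPA libraries. Every LL37 library was below every control library. Its log2 fold change was -0.86 (SE 0.17, edgeR adjusted p = 0.00214). Col24a1, a minor fibrillar chain, held 2.804, 2.31 and 4.32 CPM in control, 0.816, 1.23 and 1.41 in LL37, 2.13, 1.105 and 2.795 in LL37 + RAPA and 2.87, 4.05 and 2.94 in control + RAPA libraries. Again the LL37 libraries lay below all control libraries, and the log2 fold change was -1.44 (SE 0.37, edgeR adjusted p = 0.00923). Col11a1 held 1.62, 0.564 and 2.48 CPM in control, 0.762, 0.919 and 1.08 in LL37, 1.76, 1.56 and 1.67 in LL37 + RAPA and 1.03, 1.63 and 0.921 in control + RAPA libraries, with control replicate 2 far below the other control libraries. It was not called (-0.74, SE 0.44, edgeR adjusted p = 0.202), but was called lower without control replicate 2. Over the whole class, 0 of 10 tested fibrillar genes rose and 2 fell in LL37 vs control by edgeR, with a class median of 0.05. The all-gene share that fell was 21.6%, so 2 of 10 is near the background, and 2 of 10 at an unadjusted p under 0.05 stand beside 9005 of all 17993 tested genes. In LL37 vs LL37 + RAPA 1 fell (Col5a3) and in LL37 + RAPA vs control 1 rose (Col5a3).

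Fibroblasts make most fibrillar collagen, and the summed level of their markers outside the collagen family overlapped between all groups. The 12 genes of that list (Pdgfra, Dcn, Lum and others) summed to 1191 to 1803 CPM in control, 1271 to 1419 in control + RAPA, 1336 to 1601 in LL37 and 1359 to 1833 in LL37 + RAPA skin, and none was at 0 in any group. In LL37 vs control 3 of the 12 rose and 5 fell. Control replicate 1, the high library for Col1a1, Col1a2 and Col3a1, also had the highest fibroblast sum of its group (1803 against 1191 and 1322 CPM). The part of fibroblast content in the collagen levels was not tested.

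FACIT genes ranged from -4.88 to 1.84 in log2 fold change in LL37 vs control. There 1 of 6 tested genes rose (21.0% of all tested genes) and 3 fell (21.6%). Col12a1, a FACIT that bridges fibrils in tissue under load, held 37.7, 27.9 and 33.2 CPM in control, 128, 119 and 105 in LL37, 75.9, 99.3 and 99.2 in LL37 + RAPA and 29.01, 29.6 and 38.4 in control + RAPA libraries. All LL37 and LL37 + RAPA libraries were above all control and control + RAPA libraries. It rose with a log2 fold change of 1.84 (SE 0.16, edgeR adjusted p = 7.75e-06) in LL37 vs control and 1.47 (SE 0.16, edgeR adjusted p = 9.97e-05) in LL37 + RAPA vs control. Between LL37 and LL37 + RAPA skin it was not called (0.36, SE 0.15, edgeR adjusted p = 0.101). Both calls against control were made in every setting tried.

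Col14a1, a FACIT of mature dermal and tendon fibrils, went the other way. It held 119, 62.9 and 66.7 CPM in control, 8.06, 7.48 and 30.0 in LL37, 46.6, 48.5 and 35.6 in LL37 + RAPA and 58.7, 59.8 and 65.5 in control + RAPA libraries. Each LL37 library was below each library of the other groups, and LL37 replicate 3 was nearest to them. Col14a1 fell with a log2 fold change of -2.44 (SE 0.46, edgeR adjusted p = 0.0014) in LL37 vs control, and was lower in LL37 than in LL37 + RAPA skin (-1.51, SE 0.45, edgeR adjusted p = 0.0314), a call that was lost without LL37 replicate 1 or 2 or any 1 LL37 + RAPA library. In LL37 + RAPA vs control its log2 fold change was -0.93 (SE 0.43, edgeR adjusted p = 0.193). Col20a1, a FACIT related to type XIV collagen, held 27.9, 31.02 and 26.7 CPM in control, 15.5, 15.99 and 17.7 in LL37, 25.05, 20.9 and 26.7 in LL37 + RAPA and 28.8, 29.7 and 25.2 in control + RAPA libraries. Its LL37 libraries were close together and below all others. The log2 fold change was -0.80 (SE 0.12, edgeR adjusted p = 0.000347) in LL37 vs control and -0.56 (SE 0.12, edgeR adjusted p = 0.00765) in LL37 vs LL37 + RAPA. Col20a1 shares 79 bases of exon with BX649560.1 on the same strand.

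Col22a1 marks the junction between muscle fibres and their matrix. It held 2.53, 1.64 and 1.11 CPM in control, 2.12, 1.33 and 1.497 in control + RAPA, 0.109, 0 and 0.0471 in LL37 and 0.142, 0 and 0.0902 in LL37 + RAPA libraries. All 6 libraries with LL37 were at or under the floor. Against that floor its level was at least 10.8-fold higher in control than in LL37 skin and at least 13.2-fold higher than in LL37 + RAPA skin, and both differences were called (adjusted p = 0.000289 and 0.000855, edgeR). The 20 skeletal muscle genes summed to 39240 to 56760 CPM in control, 40690 to 74380 in control + RAPA, 204 to 1225 in LL37 and 3959 to 8187 in LL37 + RAPA skin, and all 19 tested muscle genes fell in LL37 vs control and 12 of 19 in LL37 + RAPA vs control. Of the 20, only Tnnc2 was at 0 in all LL37 libraries, and it was under 0.486 CPM in every library. The part of muscle content in Col22a1 was not tested. The remaining tested FACIT genes were not called in any comparison with all libraries. Col16a1, found at fibrils and basement membranes, held 134, 122 and 116 CPM in control, 106, 157 and 126 in LL37, 149, 153 and 148 in LL37 + RAPA and 114, 117 and 123 in control + RAPA libraries, and Col9a3, whose exons overlap those of Tcfl5 on the other strand by 234 bases, ranged from 2.33 to 4.91 CPM.

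The type IV genes split by chain. The ubiquitous chains Col4a1 and Col4a2 were not called in LL37 vs control, whereas Col4a3, Col4a4 and Col4a6, chains of more specialised basement membranes, fell in LL37 skin. Col4a1 held 323, 153 and 201 CPM in control, 355, 445 and 302 in LL37, 385, 524 and 546 in LL37 + RAPA and 192, 349 and 227 in control + RAPA libraries. Col4a2 held 260.5, 136 and 170.4 CPM in control, 266, 319 and 229 in LL37, 312, 379 and 417 in LL37 + RAPA and 164, 286 and 198 in control + RAPA libraries. For both genes the LL37 + RAPA libraries were above all control libraries, and 1 LL37 library fell below the highest control library. They rose in LL37 + RAPA vs control by log2 fold changes of 1.10 (SE 0.29, edgeR adjusted p = 0.0245) and 0.96 (SE 0.25, edgeR adjusted p = 0.0245). In LL37 vs control the values were 0.70 and 0.52 (adjusted p = 0.0669 and 0.116, edgeR), and both were called there without control replicate 1, as was Col4a1 without LL37 replicate 3. With all libraries, Col4a1 was also called higher there with library size only in place of TMM and with DESeq2. The calls in LL37 + RAPA vs control were lost without control replicate 2 or 3 or LL37 + RAPA replicate 2 or 3. The 10 endothelial markers, which label the vessels whose basement membrane holds these chains, summed to 406 to 508.9 CPM in control, 404 to 566 in control + RAPA, 339.5 to 455 in LL37 and 548 to 575 in LL37 + RAPA skin. None of the 10 was at 0 in any group, 3 fell in LL37 vs control and 1 rose in LL37 + RAPA vs control, and their part in the type IV levels was not tested.

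Col4a3 and Col4a4 encode partner chains of the specialised network and lie head to head on chromosome 1, with Col4a4 on the minus strand (82448423 to 82586849) and Col4a3 on the plus strand (82586921 to 82722059, GRCm38). The 71 bases between their annotated starts are shown because this interval faces both genes, and any part of it in their fall in LL37 skin was not tested. They span chr1:82586850-82586920, are given 5′ to 3′ on the minus strand from the RefSeq promoter entry of Col4a4, and are 69.0% G or C.
Col4a4 and Col4a3 interval: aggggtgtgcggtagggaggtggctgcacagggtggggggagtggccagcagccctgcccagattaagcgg
The table of promoters held an entry for 35 of the 44 genes. Col4a1 and Col4a2 are also head to head, on chromosome 8, with 22 shared bases of exon at their starts, and Col4a6 and Col4a5 lie head to head on the X chromosome with 1308 bases between them. Col4a4 held 6.15, 6.46 and 5.74 CPM in control, 0.816, 0.858 and 2.17 in LL37, 3.04, 2.13 and 2.03 in LL37 + RAPA and 7.26, 7.85 and 4.38 in control + RAPA libraries. Col4a3 held 1.94, 1.999 and 1.74 CPM in control, 0.708, 0.429 and 0.518 in LL37, 0.949, 0.614 and 1.04 in LL37 + RAPA and 1.95, 2.86 and 1.44 in control + RAPA libraries. For both genes every library with LL37, given RAPA or not, was below every control library. Col4a4 fell, with a log2 fold change of -2.22 (SE 0.36, edgeR adjusted p = 0.00058) in LL37 vs control and -1.35 (SE 0.34, edgeR adjusted p = 0.0205) in LL37 + RAPA vs control. Col4a3 gave -1.76 (SE 0.34, edgeR adjusted p = 0.00161) and -1.13 (SE 0.32, edgeR adjusted p = 0.0354). The LL37 + RAPA calls of both rested on single libraries, that of Col4a3 being lost without any 1 control or LL37 + RAPA library and that of Col4a4 without control replicate 1 or 2 or LL37 + RAPA replicate 2 or 3. C430014B12Rik shares 563 bases of exon with Col4a3 on the other strand, and the counting is not stated to use strand, so reads of both cannot be told apart.

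Col4a6, a chain of epithelial and smooth muscle basement membranes, held 0.863, 1.08 and 1.001 CPM in control, 0.272, 0.613 and 0.518 in LL37, 1.85, 1.19 and 1.22 in LL37 + RAPA and 1.74, 1.53 and 1.73 in control + RAPA libraries. The LL37 libraries were lowest and the control + RAPA libraries were above all control libraries. Col4a6 was lower in LL37 than in LL37 + RAPA skin, with a log2 fold change of -1.59 (SE 0.33, edgeR adjusted p = 0.00669), and lower than in control skin, at -1.06 (SE 0.34, edgeR adjusted p = 0.0248). The call against control was lost without control replicate 2 or 3 or LL37 replicate 1. Col4a5, its neighbour, ranged from 8.33 to 21.0 CPM and was not called (-0.69, SE 0.26, edgeR adjusted p = 0.05004 in LL37 vs control), but was called lower there without LL37 replicate 3. DESeq2 over all libraries also called Col4a5 lower there. Basal keratinocyte markers (8 genes, none at 0) summed to 12280 to 16970 CPM in control, 12350 to 14720 in control + RAPA, 20770 to 21290 in LL37 and 14760 to 16390 in LL37 + RAPA skin. Krt5 and Krt14 made up most of that sum. Krt15 and Dst were lower in every LL37 library than in every control library. Of the 8, 4 rose and 2 fell in LL37 vs control, and their part in the type IV levels was not tested.

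Type VI genes also differed by chain. Col6a1 and Col6a2 encode the short chains of the beaded filament and Col6a3 its long chain. Col6a3 held 203, 97.5 and 143 CPM in control, 264, 286 and 256 in LL37, 202, 331 and 267 in LL37 + RAPA and 83.2, 85.98 and 138 in control + RAPA libraries. Every LL37 library exceeded every control library. Its log2 fold change in LL37 vs control was 0.86 (SE 0.27, edgeR adjusted p = 0.0221), a call lost without control replicate 2 or 3. Col6a1 held 400.3, 226 and 227 CPM in control, 211, 239.7 and 290.1 in LL37, 373, 529 and 492 in LL37 + RAPA and 210.3, 231 and 262 in control + RAPA libraries. Col6a2 held 362, 186 and 189.5 CPM in control, 231, 239 and 296 in LL37, 341, 514 and 492 in LL37 + RAPA and 159, 167 and 210.2 in control + RAPA libraries. The LL37 libraries of both genes overlapped the control libraries and were below all LL37 + RAPA libraries. Both were lower in LL37 than in LL37 + RAPA skin, Col6a1 at -0.91 (SE 0.22, edgeR adjusted p = 0.0141) and Col6a2 at -0.82 (SE 0.25, edgeR adjusted p = 0.0359) on the log2 scale. The first call was lost without LL37 replicate 1 and the second without LL37 replicate 1 or 2 or LL37 + RAPA replicate 2 or 3. Col6a2 was also called in LL37 + RAPA vs control (0.87, SE 0.25, edgeR adjusted p = 0.0393), which was lost in 7 of the 12 fits that left out 1 library.

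Col6a4, Col6a5 and Col6a6 are alternatives to the long chain and had low levels. Col6a4 held 0.431, 0.102 and 0.105 CPM in control, 0.0542, 0.148 and 0.173 in control + RAPA, 1.197, 1.29 and 0.659 in LL37 and 0.237, 0.246 and 0.451 in LL37 + RAPA libraries. The LL37 libraries were above all others, and 2 of 3 control libraries were under the floor. Col6a4 passed the filter on low counts only through its LL37 libraries (22, 21 and 14 counts), and no other library exceeded 10. Its calls as higher in LL37 skin are therefore not independent of the filter, and with at least 10 counts required in every library they were lost. It rose in LL37 vs control (2.26, SE 0.55, edgeR adjusted p = 0.00658) and was higher in LL37 than in LL37 + RAPA skin (1.72, SE 0.51, edgeR adjusted p = 0.0315). The second call was lost without LL37 replicate 1 or 2 or LL37 + RAPA replicate 1 or 2. Col6a4 shares 127 and 162 bases of exon with Gm36993 and Gm47575 on the other strand. Col6a6 held 16.9, 6.25 and 7.59 CPM in control, 0.9797, 1.103 and 3.77 in LL37, 3.98, 4.95 and 3.61 in LL37 + RAPA and 9.06, 6.82 and 7.94 in control + RAPA libraries. Its LL37 libraries were below all control libraries, with replicate 3 nearest to them, and it fell, at -2.36 (SE 0.49, edgeR adjusted p = 0.00258) on the log2 scale. Col6a5 held 2.53, 1.08 and 2.53 CPM in control, 0.4898, 0.735 and 1.79 in LL37, 3.65, 3.44 and 3.79 in LL37 + RAPA and 1.301, 1.28 and 2.07 in control + RAPA libraries. The LL37 + RAPA libraries were close together above all others. Col6a5 was lower in LL37 than in LL37 + RAPA skin (-1.82, SE 0.44, edgeR adjusted p = 0.0136), a call lost without LL37 replicate 1, and not called in LL37 vs control (-0.99, SE 0.45, edgeR adjusted p = 0.0988), where it was called lower without control replicate 2 or without LL37 replicate 3.

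At the junction of epidermis and dermis, the anchoring fibril gene fell and the hemidesmosome gene was not called. Col7a1, the only chain of the anchoring fibril, held 407, 397 and 363 CPM in control, 158, 148 and 273 in LL37, 333, 272 and 303 in LL37 + RAPA and 431, 310.2 and 355 in control + RAPA libraries. All LL37 libraries were below all control libraries, with replicate 3 between them and the other LL37 libraries, and it overlapped LL37 + RAPA skin. Col7a1 fell, with a log2 fold change of -1.01 (SE 0.21, edgeR adjusted p = 0.0025) in LL37 vs control. The difference from LL37 + RAPA skin (-0.65, SE 0.21, edgeR adjusted p = 0.0419) was called, but was lost in 10 of the 12 fits that left out 1 library. Col17a1 held 1312, 1418 and 1191 CPM in control, 1312, 1331 and 1591 in LL37, 1507, 1516 and 1698 in LL37 + RAPA and 1485, 1587 and 1405 in control + RAPA libraries. These overlapped between LL37 and control skin, and the log2 fold change was 0.11 (SE 0.12, edgeR adjusted p = 0.477). Col23a1 and Col13a1, further transmembrane chains of epidermis and cell contacts, were not called either with all libraries. Col23a1 held 39.1, 55.3 and 39.5 CPM in control, 64.3, 66.1 and 34.1 in LL37, 40.8, 45.2 and 33.2 in LL37 + RAPA and 51.6, 37.7 and 55.6 in control + RAPA libraries, and it was called in LL37 vs control without LL37 replicate 3. Col13a1 held 3.45, 3.33 and 3.42 CPM in control, 2.94, 4.35 and 2.83 in LL37, 2.85, 4.26 and 2.705 in LL37 + RAPA and 2.12, 1.58 and 2.13 in control + RAPA libraries. The control + RAPA libraries of Col13a1 were below all control libraries, though the test after adjustment did not call it (-0.81, SE 0.25, edgeR adjusted p = 0.454).

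Of the multiplexins, which link basement membranes to the matrix beneath, Col18a1 rose in LL37 skin and Col15a1 was not called. Col18a1, the source of endostatin, held 121, 102 and 108 CPM in control, 241, 255 and 230 in LL37, 160.4, 195 and 180.1 in LL37 + RAPA and 80.5, 89.5 and 91.9 in control + RAPA libraries. The groups did not overlap, with LL37 highest, LL37 + RAPA next, then control and control + RAPA skin. The log2 fold change was 1.14 (SE 0.10, edgeR adjusted p = 1.02e-05) in LL37 vs control, 0.44 (SE 0.10, edgeR adjusted p = 0.0103) in LL37 vs LL37 + RAPA and 0.70 (SE 0.10, edgeR adjusted p = 0.000785) in LL37 + RAPA vs control. The first was called in every setting tried, and the second was lost without LL37 + RAPA replicate 1. Col15a1, a chain of vessel, nerve and muscle basement membranes, held 89.7, 44.1 and 49.4 CPM in control, 51.9, 64.3 and 64.2 in LL37, 112, 123 and 105 in LL37 + RAPA and 33.8, 35.7 and 40.8 in control + RAPA libraries. All LL37 + RAPA libraries were above all others, and the LL37 libraries lay within the control range. Col15a1 was lower in LL37 than in LL37 + RAPA skin (-0.91, SE 0.22, edgeR adjusted p = 0.0131), a call lost without LL37 replicate 1. It was higher in LL37 + RAPA than in control skin (0.89, SE 0.22, edgeR adjusted p = 0.0188), a call lost without control replicate 2 or 3 or LL37 + RAPA replicate 2, and in LL37 vs control the value was -0.02 (SE 0.22, edgeR adjusted p = 0.948). Gm12426 shares 14 bases of exon with it on the other strand.

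The short chain genes of type VIII collagen, a network of vessel walls and of remodelling tissue, moved apart. Col8a1 held 15.3, 8.77 and 8.38 CPM in control, 24.1, 24.4 and 21.7 in LL37, 27.3, 43.02 and 24.5 in LL37 + RAPA and 8.19, 11.7 and 10.4 in control + RAPA libraries. All libraries with LL37 were above all libraries without it. It rose by 1.11 (SE 0.26, edgeR adjusted p = 0.00505) in LL37 vs control and 1.55 (SE 0.26, edgeR adjusted p = 0.00208) in LL37 + RAPA vs control. Col8a2 held 26.8, 28.1 and 25.8 CPM in control, 11.6, 15.99 and 23.4 in LL37, 32.8, 22.5 and 37.8 in LL37 + RAPA and 26.2, 26.9 and 22.3 in control + RAPA libraries. LL37 replicate 3 was close to the control libraries and the other LL37 libraries were lower. Col8a2 fell against control, at -0.66 (SE 0.23, edgeR adjusted p = 0.0394) on the log2 scale, a call lost in 9 of the 12 fits that left out 1 library, and it was lower in LL37 than in LL37 + RAPA skin (-0.86, SE 0.23, edgeR adjusted p = 0.0215), a call lost without LL37 replicate 1 or 2 or LL37 + RAPA replicate 1 or 3. Of the genes outside these classes, Col28a1 held 8.25, 8.15 and 9.75 CPM in control, 6.205, 8.46 and 8.71 in LL37, 13.9, 8.68 and 11.4 in LL37 + RAPA and 9.98, 8.25 and 10.1 in control + RAPA libraries. Col26a1 held 0.647, 0.359 and 1.32 CPM in control, 0.327, 0.552 and 1.23 in LL37, 0.807, 0.778 and 0.631 in LL37 + RAPA and 0.0542, 0.494 and 0.2302 in control + RAPA libraries. Neither was called in any comparison with the main settings, and the groups overlapped between LL37 and control skin. DESeq2 called Col28a1 lower in LL37 than in LL37 + RAPA skin.

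**Figure D4:**
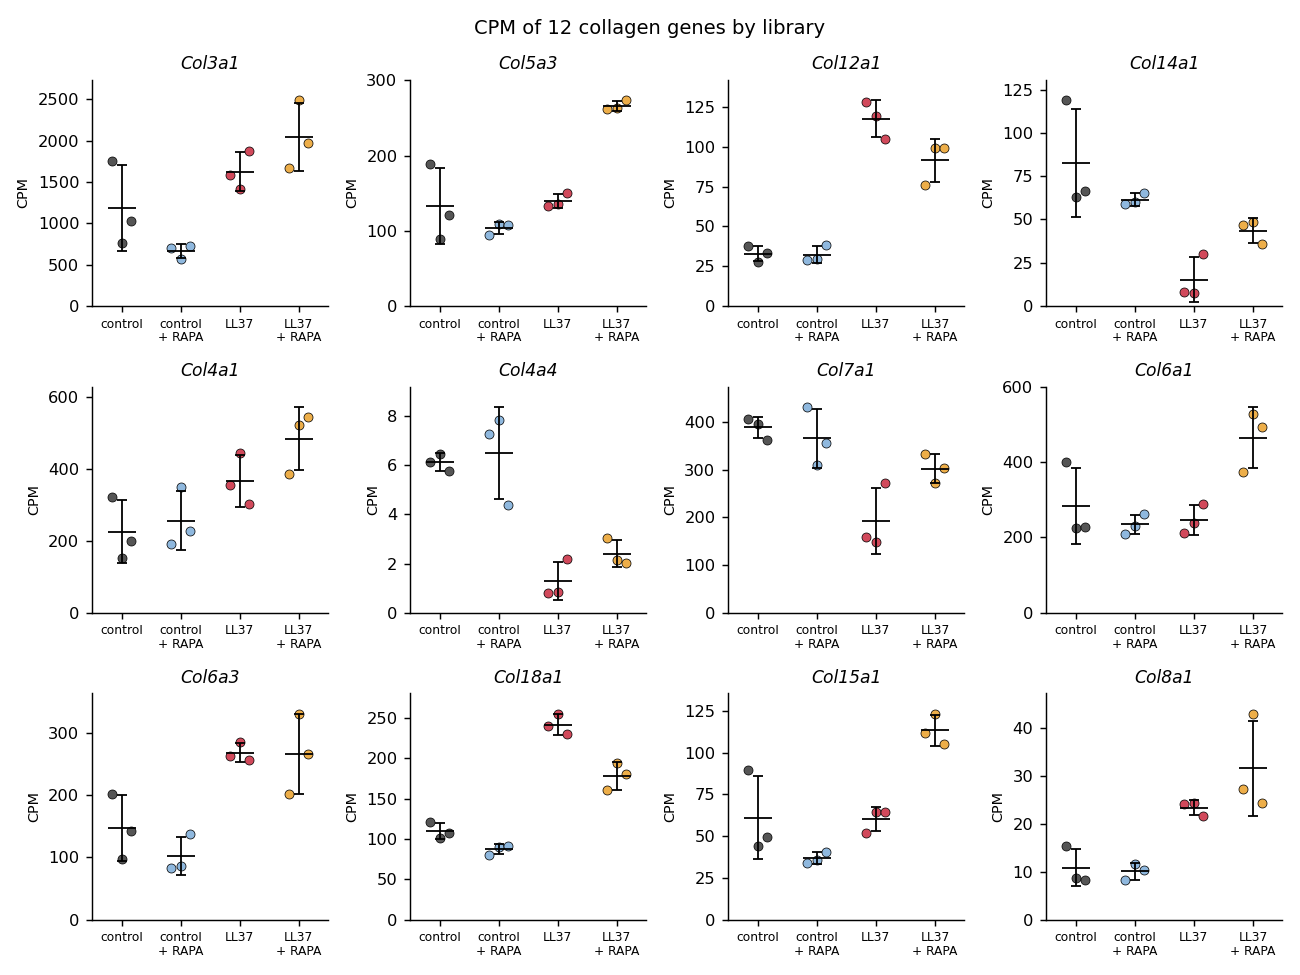
Points give the CPM (y axis) of 12 collagen genes in each library, by group (x axis), with the mean as a bar and the SD over 3 libraries as whiskers. The LL37 + RAPA points of Col5a3 (262 to 274) and Col15a1 (105 to 123) lie above all others, and the LL37 points of Col14a1 (7.48 to 30.0) lie below all others.

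The control + RAPA vs control comparison asked what RAPA did without LL37. By edgeR 0 of 38 collagen genes rose (0% of all tested genes) and 0 fell (0%). At an unadjusted p under 0.05 there were 9, of which 1 was higher (Col4a6) and 8 lower (Col15a1, Col18a1, Col13a1, Col3a1, Col27a1, Col1a2, Col9a3 and Col26a1), beside 1556 of all 17993 tested genes, and DESeq2 also called 0. The log2 fold change was negative for 29 of the 38 with a median of -0.33. Without control replicate 1 the median was -0.06, so its size rested on that library. Both Col15a1 and Col18a1 had control + RAPA libraries below every control library, with log2 fold changes of -0.73 and -0.33 (adjusted p = 0.446 and 0.446, edgeR).

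The interaction asked whether the effect of LL37 differed between skin without and with RAPA, and was coded as the LL37 effect without RAPA minus that with RAPA. It was negative for 33 of 38 collagen genes, with a median of -0.77 against -0.0081 over all tested genes. None of the 38 was called higher (1.13% of all tested genes) and 2 were called lower (2.15%), Col15a1 at -1.65 (SE 0.31, edgeR adjusted p = 0.0246) and Col5a3 at -1.30 (SE 0.29, edgeR adjusted p = 0.0374). For both, LL37 libraries overlapped control libraries while all LL37 + RAPA libraries were above all control + RAPA libraries. A further 14 genes had an unadjusted p under 0.05 without being called, among them Col27a1, Col6a1, Col6a2, Col6a5, Col14a1 and Col3a1, beside 4049 of all 17993 tested genes at that p. The Col15a1 call was lost without any 1 control + RAPA library, LL37 replicate 1, or LL37 + RAPA replicate 1 or 3. That of Col5a3 was lost in 10 of the 12 fits that left out 1 library. Without LL37 replicate 3, 17 collagen genes were called lower. That fit also called more collagen genes in LL37 vs LL37 + RAPA (20) and in LL37 + RAPA vs control (18) than the fit with all libraries. The share of all tested genes called in it was not counted, so these numbers cannot be set against the background.

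Ratios of counts between chains were set side by side for 10 pairs, chosen after the values were seen. Most pairs join chains of 1 collagen type, which can assemble together. Col3a1 with Col1a1 and Col15a1 with Col18a1 instead join chains of different types, so these ratios do not describe a single molecule. No scaling between libraries enters such a ratio. The ratio of Col6a3 to Col6a1 was 0.523 ± 0.1005 in control, 0.431 ± 0.0817 in control + RAPA, 1.11 ± 0.197 in LL37 and 0.5695 ± 0.04895 in LL37 + RAPA skin (mean ± SD, n = 3). All LL37 libraries were above all others. The ratio of Col4a1 to Col4a2 was 1.18 ± 0.0596 in control, 1.35 ± 0.0416 in LL37 and 1.31 ± 0.0735 in LL37 + RAPA skin, and that of Col3a1 to Col1a1 was 1.16 ± 0.101, 1.49 ± 0.242 and 1.48 ± 0.0523. In both pairs the LL37 libraries lay above the control libraries. The ratio of Col15a1 to Col18a1 was lower in LL37 (0.249 ± 0.0318) than in control (0.545 ± 0.172) and LL37 + RAPA skin (0.637 ± 0.0571), without overlap. The ratio of Col8a1 to Col8a2 was 0.402 ± 0.146 in control and 1.51 ± 0.572 in LL37 skin. A two-sided exact permutation test of log ratios gave p = 0.1, the smallest that 3 against 3 can give, for each of these 5 pairs in LL37 vs control. Over the 40 tests of 10 pairs in 4 comparisons, the smallest adjusted p was 0.286. As no exact p can be under 0.1 here, these tests could not call any ratio at 0.05.

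**Figure D5:**
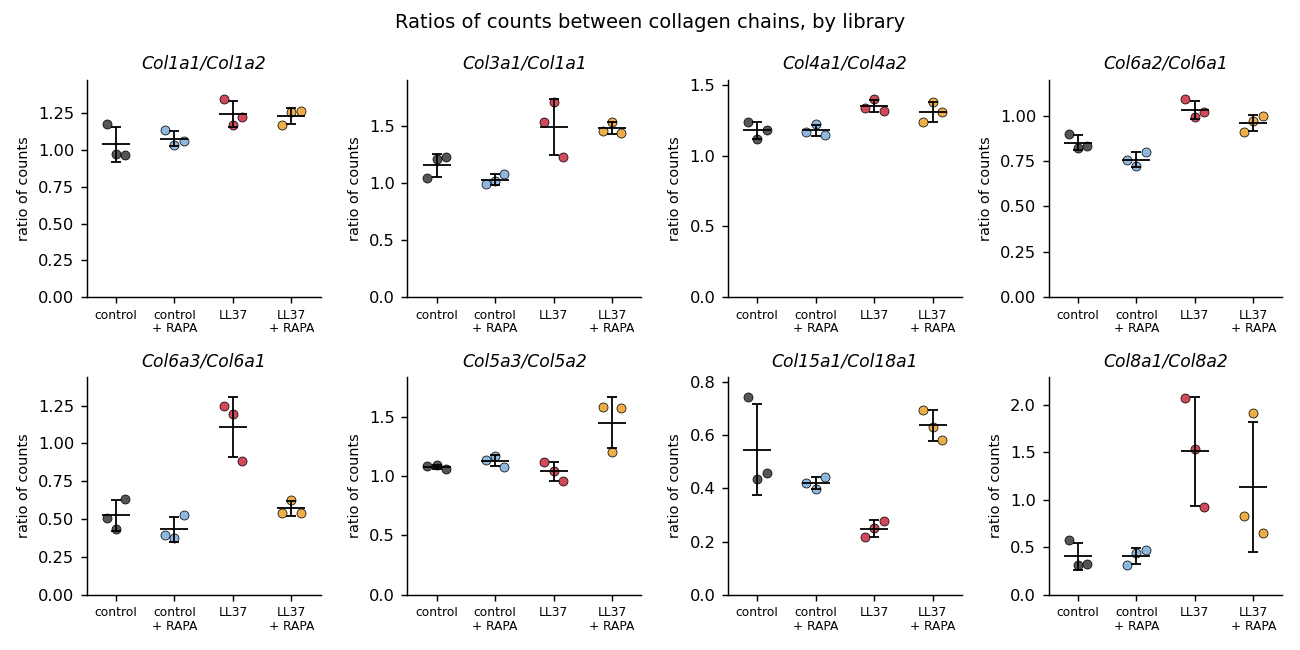
Points give the ratio of counts between a pair of collagen genes (y axis) in each library, by group (x axis), for 8 pairs, with the mean and the SD over 3 libraries. The LL37 points of Col6a3 to Col6a1 (0.884 to 1.25) lie above those of every other group (0.372 to 0.631).

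Collagen chains need a shared machinery, and 65 of its genes, 62 of them tested, were followed as a list. In LL37 vs control 24 of the 62 rose, against 21.0% of all tested genes, and 13 fell, against 21.6%, so the number that fell was near the background. Of the genes that modify and fold the chains in the endoplasmic reticulum 11 of 19 rose and 2 fell, with a median log2 fold change of 0.65. P4ha1, a catalytic subunit of the prolyl 4-hydroxylase that stabilises the helix, held 55.2, 51.7 and 60.2 CPM in control, 124, 109 and 102 in LL37 and 63.7, 86.3 and 69.5 in LL37 + RAPA libraries. P4hb, its partner subunit, held 346, 360.3 and 380.2 CPM in control, 701, 704 and 556 in LL37 and 431, 503 and 441 in LL37 + RAPA libraries. Every LL37 library exceeded every control library for both, and they rose by 1.00 (SE 0.13, edgeR adjusted p = 0.000137) and 0.85 (SE 0.11, edgeR adjusted p = 0.000154). Both were also higher in LL37 than in LL37 + RAPA skin, at 0.61 (SE 0.13, edgeR adjusted p = 0.00756) and 0.51 (SE 0.11, edgeR adjusted p = 0.0087), the opposite sign to most collagen genes in that comparison. This did not hold for their list as a whole. Of its 19 genes 3 were higher, 2 were lower and 14 were not called there, with a median log2 fold change of 0.01. Of the 5 cross-linking genes 3 rose and none fell (3 at an unadjusted p under 0.05, edgeR), with Loxl2 at 1.09 (SE 0.26, edgeR adjusted p = 0.00558) and Loxl3 at 1.14 (SE 0.28, edgeR adjusted p = 0.00669), both lysyl oxidase relatives.

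Lists of genes acting outside the cell held calls in both directions. Their counts in LL37 vs control stand beside 21.0% of all tested genes that rose and 21.6% that fell. Of 6 tested propeptide processing genes 1 rose and 3 fell in LL37 vs control. Pcolce2, an enhancer of the C-propeptide protease, held 48.7, 38.8 and 36.6 CPM in control, 10.8, 10.7 and 15.8 in LL37 and 22.4, 26.7 and 18.4 in LL37 + RAPA libraries, and fell, with a log2 fold change of -1.73 (SE 0.18, edgeR adjusted p = 3.56e-05). Adamts14, an N-propeptide protease, fell, at -1.35 (SE 0.33, edgeR adjusted p = 0.00677). Among 12 fibril-associated proteoglycans and glycoproteins 3 rose and 3 fell. Dpt (dermatopontin) held 308, 187 and 224 CPM in control, 60.1, 60.2 and 116 in LL37 and 158, 144 and 136 in LL37 + RAPA libraries and fell, at -1.60 (SE 0.25, edgeR adjusted p = 0.000419), and Ogn (osteoglycin) fell, at -2.85 (SE 0.58, edgeR adjusted p = 0.00215). Of 9 tested receptor and uptake genes 3 rose and 1 fell. Itga11, the integrin chain for fibrillar collagen on fibroblasts, fell, at -1.51 (SE 0.25, edgeR adjusted p = 0.000719), and Ddr2, a receptor kinase for fibrillar collagen, rose by 1.17 (SE 0.21, edgeR adjusted p = 0.00115). In the TGF-beta axis, which drives collagen transcription in fibroblasts, 3 of 11 rose and 4 fell, among the latter Tgfb2 (-1.79, SE 0.16, edgeR adjusted p = 1.15e-05) and Tgfb3 (-1.42, SE 0.16, edgeR adjusted p = 4.63e-05).
Over the whole list, 4 of 62 genes were higher (11.8% of all tested genes) and 14 lower (12.4%) in LL37 vs LL37 + RAPA, 18 rose (5.03%) and 4 fell (9.01%) in LL37 + RAPA vs control, and 0 were called in control + RAPA vs control. The interaction called 0 higher (1.13%) and 3 lower (2.15%), Tgfb2 at -1.27 (SE 0.22, edgeR adjusted p = 0.0232), Tgfb3 at -0.97 (SE 0.22, edgeR adjusted p = 0.0379) and Ccn2, a matricellular target of TGF-beta named after its value was seen, at -2.05 (SE 0.33, edgeR adjusted p = 0.0211). With library size only in place of TMM, the number that rose in LL37 + RAPA vs control was 28 in place of 18.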

How the data were processed

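RNA-seq of whole back skin was analysed in 12 libraries, 3 per group. The authors deposited raw counts of read pairs per gene in 1 table. The submitters' processing notes name HISAT2 2.0.5, StringTie 1.3.3b, featureCounts 1.5.0-p3, DESeq2 1.16.1 and build mm10, while the methods of the study name HTSeq for counting; whether counting used strand is not given in the sources used here. Gene symbols, exon lengths and coding sequences came from GENCODE M21 (GRCm38), which matched 52489 of the 52636 identifiers. The members and lists were chosen with earlier results of these data known.

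Genes were filtered by filterByExpr, scaled by TMM and fitted over all 12 libraries in 1 model without a block by edgeR 4.0.16 (limma 3.58.1, R 4.3.3), with the Benjamini-Hochberg adjustment over 17993 genes and a threshold of 0.05. The standard error was the log2 fold change divided by the square root of F. The scripts were tested on simulated data. Library totals were 15734559 to 23271784 counts. Shares and ratios used two-sided exact permutation tests. No pair of libraries of the same group differed by less than sampling noise, and pairs across groups were not compared in this way.

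Values per library are given for the 3 collagen genes with the smallest p per class and direction in LL37 vs control, the 6 with the highest control mean, and up to 4 per direction by p in LL37 vs LL37 + RAPA and among those called in the other comparisons. From each pathway list the 2 genes with the smallest p were named. Replicate numbers are shared between groups, but deviations of same-numbered libraries correlated at -0.19 to 0.26 over 18 pairs, so the numbers were not taken to pair libraries. Alternatives covered scaling, filters, DESeq2 1.42.0, the samples fitted, a replicate block and leaving out each library.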

Additional observations from a re-analysis of the deposited data

Results flagged for a closer look

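The LL37 effect differed between skin without and with RAPA for 2 collagen genes by the interaction term. Col15a1 gave -1.65 and Col5a3 gave -1.30 on the log2 scale, each the LL37 effect without RAPA minus that with RAPA (edgeR, called at an adjusted p under 0.05). Neither call was made with the replicate block.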

How the results depend on the processing

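No called collagen gene changed direction under any alternative. In LL37 vs control, leaving out 1 library gave 4 to 9 genes higher and 9 to 13 lower, with 9 higher without control replicate 1. In LL37 vs LL37 + RAPA, 1 was higher in place of 2 with at least 1 count in total, with at least 10 counts in every library, with the fold limit and with the replicate block. There 3 in place of 10 were lower with the fold limit and 16 at an unadjusted p, and leaving out 1 library gave 0 to 3 higher and 3 to 17 lower (17 without LL37 replicate 3, 3 without LL37 replicate 1 and 6 without LL37 + RAPA replicate 3). In LL37 + RAPA vs control, 15 in place of 8 were higher with library size only, 13 with DESeq2, 3 with the fold limit and 16 at an unadjusted p. There 1 in place of 3 was lower with at least 10 counts in every library and 5 with only the compared groups, and leaving out 1 library gave 4 to 13 higher and 1 to 5 lower. It gave 13 higher without control replicate 1 or LL37 replicate 3, 4 without control replicate 2 or 3 or LL37 + RAPA replicate 2, and 5 without LL37 + RAPA replicate 3. In control + RAPA vs control, 1 was higher and 8 lower at an unadjusted p. In the interaction, 9 in place of 2 were lower with at least 1 count in total, 11 with DESeq2, 16 at an unadjusted p and 0 with the replicate block, and leaving out 1 library gave 0 to 17 (6 without control replicate 2 and 17 without LL37 replicate 3). The share of all tested genes called under each alternative was not counted, so these counts cannot be set against the background. The cause was not tested.

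Replicate numbers were not taken to pair the libraries, though the weak correlations cannot exclude a pairing. The replicate block left 5 genes higher and 11 lower for LL37 vs control, 6 and 2 for LL37 + RAPA vs control, 1 and 10 for LL37 vs LL37 + RAPA, and 0 for the interaction.

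As a share per kilobase of exon over the collagen genes only, the fibrillar difference in LL37 + RAPA vs control was 5.38% in place of 57.6%, that of type IV 41.6% in place of 116.9%, and that of type VI 21.0% in place of 88.6%. Type IV in LL37 vs LL37 + RAPA was -2.50% in place of -27.7%. FACIT genes turned in sign, to -24.1% for LL37 vs control, 6.34% for LL37 vs LL37 + RAPA, -28.6% for LL37 + RAPA vs control and 4.35% in control + RAPA vs control. This measure is relative to the other collagen genes by construction. With 3 libraries per group, an exact permutation test cannot give a p under 0.1.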
